A study of Homo sapiens with 4 samples.

Results

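The genes described here are 8 components of reelin signalling in C4-2 cells, a prostate cancer cell line that was derived from LNCaP and grows without androgen: the ligand gene RELN, the receptor genes LRP8 and VLDLR, the adaptor genes DAB1 and DAB2, the kinase gene FYN, and the adaptor genes CRK and CRKL. DAB1 was selected on its CPM and fold change between resistant and control libraries of this series, so its values are given as a description without a test. The other 7 were listed for their place in the pathway or, for DAB2, as the paralog of DAB1. All 8 had a row among the 60483 gene identifiers of the count tables and a count in all 4 libraries, and 7 passed the filter on low counts that left 20325 genes for testing. DAB1 passed it only through its counts in resistant cells.

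The study compared 2 control libraries (C4-2-CON) with 2 enzalutamide-resistant libraries (C4-2-ENZ). Enzalutamide is a drug that blocks the androgen receptor. Both groups were C4-2 cells of passage 20 to 30, grown in RPMI medium with serum, and the treatment lasted 1 month. The growth protocol also names FGF-2 and an expansion medium without saying which cells received them. Whether controls had vehicle, whether the drug was present at harvest, and whether the resistant cells are a clone or a mixed population is not stated in the labels. Drug exposure and resistance therefore cannot be told apart. Since nothing ties the replicates to separate cultures, all p-values refer to the spread between libraries, which may be technical.

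Reelin is a large secreted glycoprotein that binds the receptors encoded by LRP8 (also called ApoER2) and VLDLR, which also take up lipoproteins. Binding clusters the receptors, and DAB1, docked on their cytoplasmic tails through its PTB domain, is phosphorylated on tyrosine by FYN and SRC. Phosphorylated DAB1 recruits CRK and CRKL, which bring the exchange factor RAPGEF1 to RAP1, and is then marked for degradation by a CUL5 ubiquitin ligase. The pathway is best known for placing migrating neurons in the developing brain. DAB2 has a related PTB domain and works mainly as a clathrin adaptor in endocytosis, and its expression has been described as reduced in prostate cancer.

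Gene counts totalled between 25589724 and 45033885 per library, the control libraries being the shallower ones. Reads not aligned made up 34.16% to 36.95% of HTSeq records in control and 20.32% to 20.66% in resistant libraries. Of 10 luminal prostate markers, all 10 reached 1 CPM (a count scaled to a library of 1000000 reads). Their summed level was 3237 to 3264 CPM in control and 4627 to 4633 CPM in resistant libraries. The markers did not all move with the sum: 7 were called higher and 2 lower in resistant cells. Over all genes tested, 33% were called higher and 31.7% lower. Few markers of cells in which reelin signalling is better known reached 1 CPM. Of 14 neuron markers only GAD1 and NEFL reached 1 CPM in any library (sum 4.73 to 5.32 CPM in control, 4.60 to 5.86 CPM in resistant), and GAD2 and ELAVL4 had no count. Of 10 neural stem markers PAX6 and NES did (5.28 to 6.44 CPM against 3.25 to 3.34 CPM). Fibroblast markers reached 1 CPM for 3 of 9 genes, with sums of 9.3 to 11.4 CPM in control and 8.89 to 9.36 CPM in resistant libraries and COL1A2 at 0. The endothelial list had 1 of 8 (VWF; 4.66 to 5.36 CPM against 3.76 to 4.35 CPM) and the leukocyte list 3 of 9 (2.88 to 3.10 CPM against 4.87 to 5.18 CPM, with CD3E at 0). The part of these sums in the results below was not tested.

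DAB1 had almost no counts in control cells and many in resistant cells. It had 4 and 1 counts in control replicates 1 and 2, against 734 and 680 in resistant replicates 1 and 2. On the CPM scale, scaled by TMM, these were 0.168 and 0.0356 CPM in control and 15.2 and 16.4 CPM in resistant libraries. Both resistant libraries were above both controls, the pattern for which the gene was chosen. Counting error gave ranges of 0.0456 to 0.429 CPM and 0.000901 to 0.198 CPM for the controls and of 14.1 to 16.3 CPM and 15.2 to 17.7 CPM for the resistant libraries (exact Poisson, 95%). The means were 0.102 ± 0.0933 and 15.8 ± 0.835 CPM (SD, n = 2). Summed over each group, 5 counts stood against 1414, a ratio of 164 with a 95% counting interval of 70.0 to 505 (exact conditional binomial). This interval covers counting error only, not the spread between libraries, and is no test, as DAB1 was chosen for these values. The fitted rise was 158-fold, but its size hung on the few control counts: it was 407-fold without control replicate 1 and 92.4-fold without control replicate 2. In these bulk samples, few cells with much DAB1 RNA and many cells with little cannot be told apart.

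**Figure D1:**
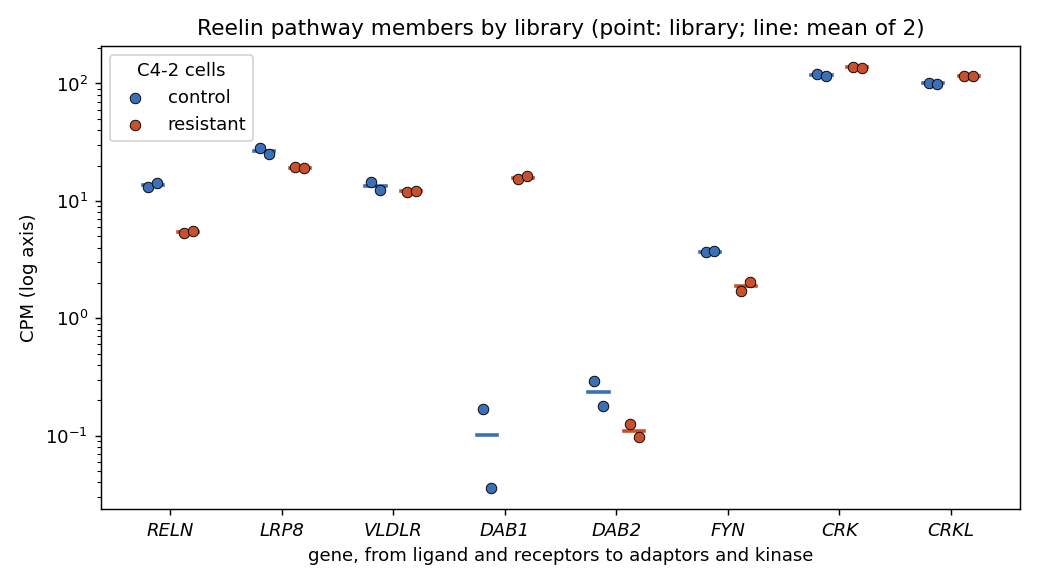
CPM of each gene in each library, on a log axis, with 1 point per library and a line at the mean of 2 libraries (blue, control; red, resistant). DAB1, chosen for its rise, lies at 0.0356 and 0.168 CPM in control and at 15.2 and 16.4 CPM in resistant cells. The other genes differ by much less between the groups.

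DAB1 (ENSG00000173406.14) spans 1551957 bases of chromosome 1, from 56994778 to 58546734 on the minus strand (GRCh38, GENCODE 29), of which 7548 are exonic. The annotation gives it 11 transcripts with 8 different starts, and RefSeq (GRCh38.p14) lists 6 starts spread over 1123614 bases. Counts per gene do not show which start was used. The 250 bases upstream of 2 of these starts are printed because they lie 825749 bases apart, 1 standing alone and the other being the outermost of 4 starts within 1642 bases, and the sequence upstream of the single RefSeq start of RELN is printed beside them because ligand and adaptor moved in opposite directions. The start at 58250503 follows chr1:58250504-58250753, the start at 57424754 follows chr1:57424755-57425004, and RELN starts at 103989658 after chr7:103989659-103989908, all on the minus strand. LRP8 and FYN also fell, but their windows are not printed. Capitals mark the E-box CACGTG.
DAB1 start at 58250503: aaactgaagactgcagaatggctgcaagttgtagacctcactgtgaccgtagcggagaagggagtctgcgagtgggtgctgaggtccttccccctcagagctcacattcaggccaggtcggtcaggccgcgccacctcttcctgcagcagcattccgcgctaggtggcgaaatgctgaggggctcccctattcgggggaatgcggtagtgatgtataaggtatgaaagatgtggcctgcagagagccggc
DAB1 start at 57424754: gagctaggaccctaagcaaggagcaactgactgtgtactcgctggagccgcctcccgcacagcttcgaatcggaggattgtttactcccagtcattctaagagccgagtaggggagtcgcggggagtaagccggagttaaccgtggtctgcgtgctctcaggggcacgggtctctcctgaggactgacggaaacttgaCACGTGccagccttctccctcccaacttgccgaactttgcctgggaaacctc
RELN start at 103989658: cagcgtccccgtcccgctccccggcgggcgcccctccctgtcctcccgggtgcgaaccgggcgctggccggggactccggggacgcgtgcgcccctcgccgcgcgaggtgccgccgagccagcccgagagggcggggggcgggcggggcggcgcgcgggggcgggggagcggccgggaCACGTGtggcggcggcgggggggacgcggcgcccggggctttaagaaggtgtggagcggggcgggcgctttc
The first of these has a GC content of 58.4% with 12 CpG dinucleotides, the second 58.4% with 15, and the RELN sequence 83.2% with 43. The E-box begins 52 bases before the second DAB1 start and 72 bases before the RELN start.

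Over both strands, 16 such windows of the 8 genes were searched for 6 motifs, and the same was done in 35116 windows of all genes. The E-box CACGTG was in 2 of the 16, both of them printed above, and in 6.34% of all windows. The core of the hypoxia response element, ACGTG, which overlaps every E-box of this kind, was in 3 of 16 (DAB1, RELN and DAB2) and in 18.5% of all. The androgen half-site AGAACA was in 2 of 16, at the DAB1 start at 57423112 and at 1 FYN start, and in 12.4% of all. The full androgen response element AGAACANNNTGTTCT (0.00285% of all windows), the AP-1 motif TGANTCA (6.57%) and the cAMP response element TGACGTCA (1.65%) were in 0 of 16. A match describes letters only and shows no binding.

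The DAB1 locus shares sequence with other genes. OMA1, a mitochondrial protease gene on the same strand from 58415384 to 58546802, covers 257 of the exonic bases of DAB1 (3.4%), around its outermost start, and the antisense gene AL161740.1 covers 123 (1.6%). OMA1 had 92.9 and 84.5 CPM in control and 88.3 and 89.7 CPM in resistant libraries, so its groups overlapped (log2 fold change 0.0054, edgeR adjusted p = 0.936). An offset for exonic length and GC content, an alternative setting, gave 0.24 (edgeR adjusted p = 3.97e-05), and scaling by total count gave 0.19 (edgeR adjusted p = 0.00491). AL161740.1 had at most 2 counts in any library. In all, 10 annotated genes overlap the DAB1 span. The long noncoding gene AL390243.1 (57386576 to 57387450), which lies 37304 bases past the DAB1 start at 57424754 in the direction of DAB1 transcription but on the plus strand, had 0 counts in both control libraries and 15 and 7 in the resistant ones. Set against a floor of 3 counts over the control group, the resistant counts as observed were 4.24-fold higher. This ratio leaves out the counting error of the resistant libraries, so it is not a lower limit. As the strand setting of the counting is unknown, reads of the 2 strands cannot be told apart. The other 8 genes besides OMA1, which include the antisense gene DAB1-AS1 (0, 0, 0 and 3 counts), had at most 3 counts in any library. AL390243.1 and DAB1-AS1 were chosen after their values were seen.

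Genes within 1000000 bases of DAB1 that were tested changed by log2 values between -1.89 and 0.99. The value of DAB1 was 7.31, but DAB1 was chosen for its rise, so this contrast is no result about the region. Of 40 considered there, 10 passed the filter, and 4 were higher, 2 lower and 4 not called, with a median log2 fold change of 0.36. Over all genes tested, 33% were called higher and 31.7% lower, with a median of -0.02. JUN, an AP-1 subunit gene 234054 bases away, rose from 37.3 ± 0.741 to 69.2 ± 1.45 CPM (log2 0.89, edgeR adjusted p = 8.32e-09). PLPP3, a lipid phosphatase gene on the other side, rose by a log2 fold change of 0.68, FGGY by 0.80, and the noncoding LINC01135 by 0.99. MYSM1, a histone deubiquitinase gene, fell from 96.7 ± 4.73 to 85.0 ± 1.86 CPM (edgeR adjusted p = 0.0049), but scaled by total count its log2 value was 0 (edgeR adjusted p = 0.951), and its edgeR adjusted p was 0.347 with no filter and 0.0822 without resistant replicate 1. LINC01767 had 10 and 12 counts in control and 7 and 3 in resistant libraries (log2 -1.89, edgeR adjusted p = 0.00478). The nearest coding genes past the 3' end of DAB1, the complement genes C8A and C8B, had at most 2 counts in any library. FYB2 (log2 fold change 0.02, edgeR adjusted p = 0.93), PRKAA2 (0.04, edgeR adjusted p = 0.676) and AC105277.1 (0.68, edgeR adjusted p = 0.0572) were not called. PRKAA2 was called higher when scaled by total count (0.22, edgeR adjusted p = 0.0148). AC105277.1 was called higher when scaled by total count, with no filter and with the offset for length and GC (edgeR adjusted p = 0.0197, 0.0451 and 0.0254). LINC01135 missed the threshold without resistant replicate 1 (edgeR adjusted p = 0.103), and it and LINC01767 missed it with DESeq2 (adjusted p = 0.122 and 0.0596).

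**Figure D2:**
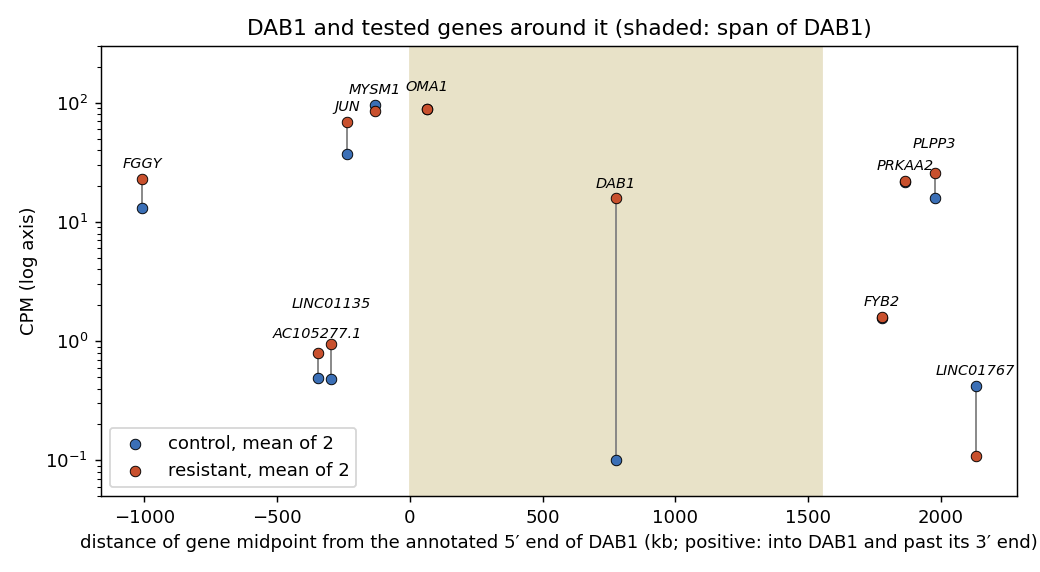
Mean CPM (log axis) of DAB1 and of 10 tested genes around it, against the distance of each gene's midpoint from the annotated 5′ end of DAB1 in kb (blue, control; red, resistant; n = 2). The gap between the groups is widest for DAB1 (0.102 and 15.8 CPM), which was chosen for its rise. OMA1, inside the shaded span, has nearly the same mean in both groups (88.7 and 89.0 CPM).

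The 5 protein-coding genes whose levels over the 4 libraries were closest to those of DAB1, by Euclidean distance in log2 CPM (prior count 2), were SEMA5A (distance 1.11), GAB3 (1.92), HDAC9 (2.07), SHH (2.08) and OPRK1 (2.15). SEMA5A, which encodes a semaphorin, had 3 and 3 counts in control and 569 and 458 in resistant libraries, or 0.126 and 0.107 CPM against 11.8 and 11.04 CPM. SHH, the gene of a secreted hedgehog ligand, had 4 and 3 against 274 and 277 counts. HDAC9, a histone deacetylase gene, went from 4 and 3 to 307 and 251 counts. All 5 lie on chromosomes other than chromosome 1. With 2 groups of 2 libraries, this likeness rests on the level in each group.

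DAB2 did not share the pattern of its paralog. It had 7 and 5 counts in control and 6 and 4 in resistant libraries, that is 0.293 and 0.178 CPM against 0.124 and 0.0964 CPM. The resistant values were lower without overlap, but each library's counting interval overlapped those of all the others, from 0.0263 to 0.247 CPM for the lowest to 0.118 to 0.604 CPM for the highest. DAB2 (chromosome 5, 39371675 to 39462300) was not tested for lack of counts. Without the filter its log2 fold change was -0.94 (edgeR adjusted p = 0.32), and a difference was not detectable at this depth. Per exonic base and within a library, which needs no scaling between libraries, DAB1 stood at 0.584 and 0.204 times DAB2 in control and at 125 and 174 times DAB2 in resistant cells. The gap between groups in this ratio follows from the choice of DAB1 for its rise. The ratio also rests on few counts, those of DAB2 above and 4 and 1 of DAB1 in control.

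Of the 6 genes tested other than DAB1, 3 were lower (RELN, LRP8, FYN), 2 higher (CRK, CRKL) and 1 not called (VLDLR) in resistant cells, at an edgeR adjusted p below 0.05. Among all genes tested 64.7% were called, 33% higher and 31.7% lower, which leaves the count of calls among these 6 near the background. The CPM of the 2 groups did not overlap for any of the 7 genes other than DAB1, as was the case for 81.3% of all genes tested.

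The ligand gene RELN (chromosome 7, 103471784 to 103989516) fell in resistant cells. It had 13.2 and 14.1 CPM in control (316 and 395 counts) and 5.36 and 5.52 CPM in resistant libraries (259 and 229 counts). Both resistant libraries were well below both controls. The fall was 2.51-fold (log2 -1.33 ± 0.0816 SE, edgeR adjusted p = 4.62e-08).

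The receptor gene LRP8 (chromosome 1, 53242364 to 53328070) also fell, by less. Its levels were 28.4 and 25.1 CPM in control and 19.5 and 18.9 CPM in resistant libraries. The groups did not overlap, with means of 26.7 ± 2.29 and 19.2 ± 0.41 CPM (SD, n = 2) and a fitted log2 difference of -0.48 ± 0.0687 (SE, edgeR adjusted p = 7.62e-05). The size depended on the setting, at -0.29 when scaled by total count and -0.82 with the offset for length and GC, and stayed called in both. Antisense genes cover 10.3% of the exonic bases of LRP8, and the labels do not state whether counting used strand.

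The other receptor gene, VLDLR (chromosome 9, 2621834 to 2660053), was not called. It had 14.4 and 12.5 CPM in control and 11.9 and 12.1 CPM in resistant libraries, the resistant pair lying just below the lower control. Its log2 difference was -0.15 ± 0.0788 (SE, edgeR adjusted p = 0.112). It turned to 0.036 when scaled by total count (edgeR adjusted p = 0.702). It was called lower without control replicate 2 (-0.26, edgeR adjusted p = 0.00788), with a filter of 1 CPM (-0.20, edgeR adjusted p = 0.047) and with the offset for length and GC (-0.31, edgeR adjusted p = 0.00131). The antisense gene VLDLR-AS1 covers 7.9% of its exonic bases. The ratio of LRP8 to VLDLR per exonic base was 1.79 and 1.84 in control and 1.48 and 1.42 in resistant libraries.

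FYN (chromosome 6, 111660332 to 111873452), which encodes a SRC family kinase that phosphorylates DAB1, was low and fell further. It had 3.69 and 3.70 CPM in control (88 and 104 counts) and 1.72 and 2.05 CPM in resistant libraries (83 and 85 counts). The change was 1.97-fold, beyond the spread of either pair (log2 -0.98 ± 0.156 SE, edgeR adjusted p = 0.000167).

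CRK (chromosome 17, 1420689 to 1463162) and CRKL (chromosome 22, 20917426 to 20953749), paralogs that link phosphorylated DAB1 and many other proteins to RAPGEF1, were the most abundant of the 8 genes and rose slightly. CRK had 120 and 116 CPM in control and 138 and 136 CPM in resistant libraries (log2 0.22 ± 0.041 SE, edgeR adjusted p = 0.000599). CRKL had 102 and 98.9 CPM against 116 and 117 CPM (log2 0.22 ± 0.0415 SE, edgeR adjusted p = 0.000703). Each gene was 1.16-fold higher without overlap between the groups. The offset for length and GC gave 0.24 for CRK but 0.07 for CRKL, which was then not called (edgeR adjusted p = 0.0878). Scaled by total count, the values were 0.41 and 0.40. The ratio of CRK to CRKL per exonic base hardly varied, at 1.54, 1.53, 1.55 and 1.52 over the 4 libraries.

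**Figure D3:**
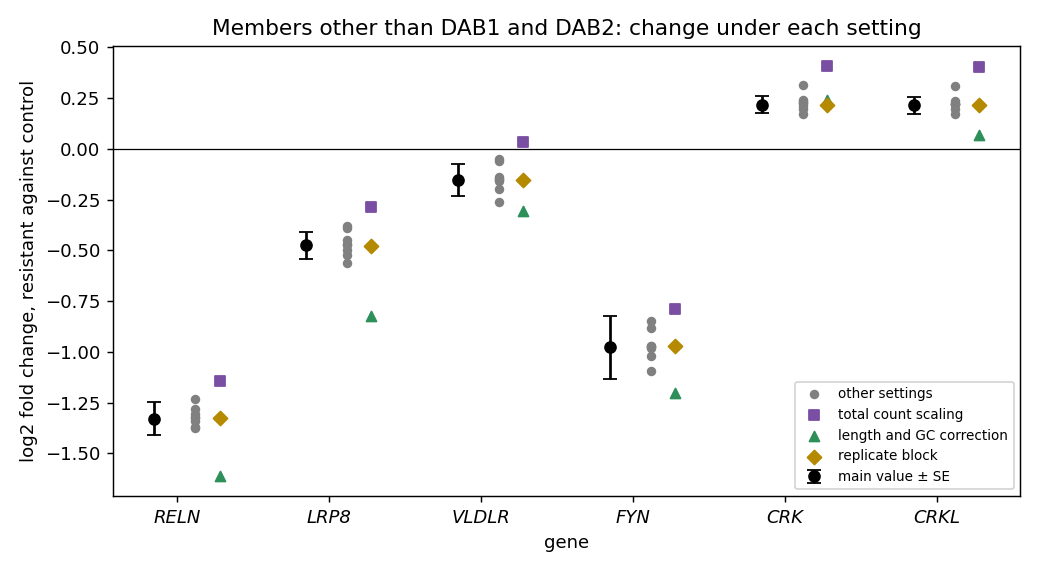
Log2 fold change of the 6 tested genes other than DAB1, resistant against control, with the main value and its approximate SE in black and each other setting beside it. RELN, LRP8 and FYN lie below 0 under every setting and CRK and CRKL above it, while VLDLR lies at 0.036 when scaled by total count and at -0.31 with the offset for length and GC.

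Levels between genes were compared as CPM per kilobase of exonic sequence (SD, n = 2). In control cells the order was CRK (28.9 ± 0.622), CRKL (18.8 ± 0.367), LRP8 (2.61 ± 0.223), VLDLR (1.44 ± 0.148), RELN (1.08 ± 0.0459), FYN (0.498 ± 0.00134), DAB2 (0.0305 ± 0.0106) and DAB1 (0.0135 ± 0.0124). The counting intervals of the last 2 overlapped. In resistant cells CRK (33.6 ± 0.311) and CRKL (21.9 ± 0.0797) again came first. DAB1 followed at 2.09 ± 0.111, above LRP8 at 1.87 ± 0.04 and VLDLR at 1.29 ± 0.0144. RELN stood at 0.43 ± 0.00861, FYN at 0.254 ± 0.0314 and DAB2 at 0.0143 ± 0.00256. In resistant replicate 1 the counting intervals of DAB1 (1.87 to 2.17) and LRP8 (1.78 to 2.02) overlapped, so their order there is within counting error, whereas in replicate 2 they did not (2.01 to 2.34 and 1.71 to 1.97). In resistant cells the level of DAB1 per kilobase was above that of 31.9% of protein-coding genes tested. RELN went from above 25.1% of them in control to above 15% in resistant cells.

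Ratios within a library, per exonic base, show the same values free of scaling between libraries. DAB1 stood at 0.00803 and 0.00193 times LRP8 in control and at 1.06 and 1.18 times LRP8 in resistant cells. Against its ligand gene, DAB1 stood at 0.0212 and 0.00424 times RELN in control and at 4.75 and 4.97 times RELN in resistant cells. RELN itself went from 0.379 and 0.454 to 0.224 and 0.237 times LRP8. The groups did not overlap in the ratio of RELN to LRP8. In the ratios with DAB1 as a term, the gap between groups follows from the choice of the gene for its rise. These ratios also rest on the 4 and 1 control counts of DAB1.

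**Figure D4:**
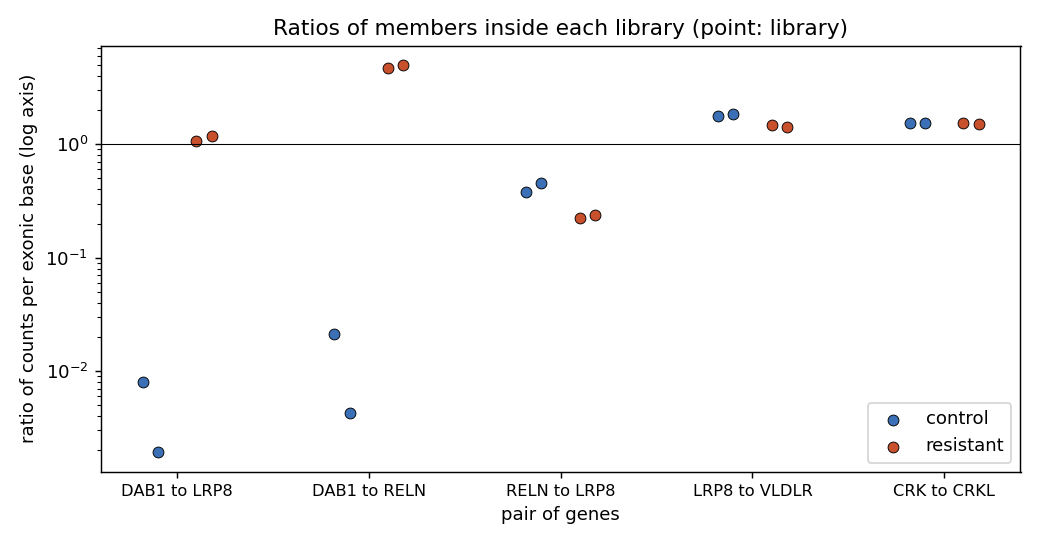
Ratios of counts per exonic base of 5 pairs of genes inside each library, on a log axis, with 1 point per library (blue, control; red, resistant). The DAB1 to LRP8 ratio is 0.00803 and 0.00193 in control and 1.06 and 1.18 in resistant libraries, while the CRK to CRKL ratio stays between 1.52 and 1.55.

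Other genes of the pathway and of the families of these 8 genes were taken from 8 lists with 115 genes, none of them among the 8. Of these, 103 were tested, and 62 were higher, 16 lower and 25 not called in resistant cells, with a median log2 fold change of 0.35 against -0.02 over all genes tested. Of all genes tested 33% were called higher and 31.7% lower, the background for the counts of each list that follow. At least 2-fold higher were 7 and at least 2-fold lower 3. The number lower was 29 with the offset for length and GC. Lists were not tested as sets. Genes named only to account for a count of 5 or fewer were named after their values were seen.

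For a list of genes that work with or after DAB1 in the pathway, the balance of calls depended on the setting. Not all of them act downstream of DAB1: the list includes SRC, which phosphorylates DAB1, and its relative YES1. Of 21 tested, 12 were higher, 4 lower (NCK1, CDK5, YES1 and CDK5R1) and 5 not called (LIMK1, MTOR, NDEL1, PIK3R2 and RAP1B), with a median of 0.26. PIK3R1 and PIK3CB, subunits of phosphoinositide 3-kinase, rose from 145 ± 8.04 to 261 ± 4.94 CPM and from 82.9 ± 6.87 to 150 ± 0.804 CPM (SD, n = 2; edgeR adjusted p = 1.36e-08 and 5.5e-08). The adaptor gene NCK1 fell 1.39-fold, and so did CDK5, a kinase gene that also acts in neuronal migration (edgeR adjusted p = 9.88e-07 and 3.66e-06). CDK5R1, which encodes an activator of CDK5, was close to the threshold (log2 -0.21, edgeR adjusted p = 0.0281) and lost its call under 6 settings, among them total count scaling (edgeR adjusted p = 0.826), no filter (edgeR adjusted p = 0.496) and DESeq2 (adjusted p = 0.225). Under the offset for length and GC the split was even, with 9 higher and 8 lower and a median of -0.02, whereas scaling by total count gave 16 and 2. AKT1, a kinase gene named after its values were seen, turned from a log2 value of 0.35 to -0.15 under that offset (edgeR adjusted p = 0.00211).

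Genes for turnover of DAB1 were split. Of 13 tested, 3 were higher (CBL, SOCS6 and CUL5), 6 lower and 4 not called (SOCS2, SOCS3, SOCS5 and SOCS7), with a median of -0.08. CUL5 lost its call with DESeq2 (adjusted p = 0.0711), the replicate block (edgeR adjusted p = 0.0662) and a filter of 1 CPM (edgeR adjusted p = 0.195). It also lost it when either resistant replicate was left out. ELOB, 1 of the 6 lower, was named after its values were seen. Its call ended when scaled by total count (edgeR adjusted p = 0.511) and with no filter (edgeR adjusted p = 0.054). The ubiquitin ligase gene CBL and the substrate receptor gene SOCS6 rose 1.52-fold and 1.43-fold (edgeR adjusted p = 9.26e-06 and 2.02e-06). ELOC, elongin C of the CUL5 ligase, fell 2.53-fold, from 134 and 129 CPM to 52.4 and 51.5 CPM (edgeR adjusted p = 2.99e-10). CISH, a cytokine signalling inhibitor gene, fell from 4.02 ± 0.299 to 1.88 ± 0.0355 CPM (SD, n = 2; edgeR adjusted p = 4.47e-05). Scaling by total count gave 5 higher and 5 lower and turned the median to 0.11.

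Of 14 genes for reelin-cleaving proteases, other ligands and receptor regulators, 10 were tested. Of these 7 were higher, 1 lower (UBE2D1) and 2 not called (CLU and PLAT), with a median of 0.46. APP, the amyloid precursor, rose 1.89-fold, and LRPAP1, a chaperone of lipoprotein receptors, rose 1.70-fold from 58.8 and 69.7 CPM to 112 and 107 CPM (edgeR adjusted p = 7.7e-10 and 9.37e-07). UBE2D1, which encodes a ubiquitin-conjugating enzyme, fell 1.26-fold (edgeR adjusted p = 0.000259), a call that ended with the offset for length and GC (edgeR adjusted p = 0.451). Under that offset CLU and PLAT were called lower and the median was 0.26. ADAMTS2, ADAMTS4, ADAMTS5 and APOE had too few counts for the test.

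Genes of related lipoprotein receptors were mostly higher. Of 10 tested, 9 were higher and 1 was not called (LDLRAD3), with a median of 0.79. SORL1, a sorting receptor gene, had 24.1 and 25.1 CPM in control and 119 and 122 CPM in resistant libraries, a 4.88-fold rise (edgeR adjusted p = 1.27e-11). LRP3 rose 1.93-fold (edgeR adjusted p = 6.21e-07). LRP1B and LRP2 did not pass the filter. The offset for length and GC gave 8 higher and 1 lower (LDLRAD3), and the median was 0.49.

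SRC family kinases and their regulators, without FYN, were 5 higher, 3 lower and 1 not called (LCK) of 9 tested, with a median of 0.51. The median was 0.30 with the 1 CPM filter (8 genes), 0.16 with the offset for length and GC and 0.082 with no filter (12 genes). FRK rose from 10.7 ± 0.283 to 16.4 ± 0.168 CPM and PTPN1, a phosphatase gene, rose 1.48-fold (edgeR adjusted p = 7.04e-06 and 1.4e-06). LYN and the kinase-anchoring protein gene PAG1 fell 1.45-fold each (edgeR adjusted p = 3.65e-05 and 9.37e-06). SRC and YES1, named after their values were seen as the other widely expressed kinases of this family, moved apart. SRC went from 13.1 and 12.7 CPM to 18.5 and 18.1 CPM and YES1 from 161 and 151 CPM to 134.0 and 134.3 CPM (edgeR adjusted p = 2.47e-05 and 0.000995), but YES1 was not called when scaled by total count (edgeR adjusted p = 0.59) or with the offset for length and GC (edgeR adjusted p = 0.61).

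Adaptors that share a PTB domain with DAB1 and DAB2 were 8 higher, 2 lower (GULP1 and APBB3) and 3 not called (APBA3, NUMB and NUMBL) of 13 tested, with a median of 0.38. GULP1, an adaptor gene for engulfment and LRP1 traffic, had the highest level of those named here, at 1237 and 1180 CPM in control and 304 and 308 CPM in resistant libraries (3.95-fold lower, edgeR adjusted p = 5.54e-12). APBA1 rose from 1.31 ± 0.0968 to 5.16 ± 0.0309 CPM and ANKS1B rose 2.19-fold (edgeR adjusted p = 3.31e-07 and 3.93e-07). Under the offset for length and GC, 5 of the list were higher and 4 lower, and the median was 0.07. The call of APBB3 ended when scaled by total count (edgeR adjusted p = 0.227).

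Endocytic partners of DAB2 were 10 higher, 1 lower (CLTA) and 6 not called of 17, with a median of 0.28. The clathrin light chain genes moved apart: CLTB rose 1.74-fold and CLTA fell 1.31-fold (edgeR adjusted p = 5.82e-08 and 2.52e-06). AP2M1, a subunit gene of the AP-2 clathrin adaptor, rose 1.57-fold (edgeR adjusted p = 3.19e-08). The offset for length and GC gave 9 higher and 4 lower (CLTA, EPS15L1, FCHO1 and ITSN1), and the median was 0.10.

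Partners of CRK and CRKL were 11 higher, 0 lower and 3 not called (CBLB, PXN and SOS1) of 14 tested by edgeR, with a median of 0.50. NEDD9, a docking protein gene, had 15.3 and 15.4 CPM in control and 44.2 and 44.5 CPM in resistant libraries, a 2.89-fold rise (edgeR adjusted p = 7.28e-10). GAB1, another docking protein gene, rose 2.14-fold (edgeR adjusted p = 3.09e-07). The same offset gave 7 higher and 1 lower (PXN) for this list, with a median of 0.19. DOCK2 and ELMO1 did not pass the filter.

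**Figure D5:**
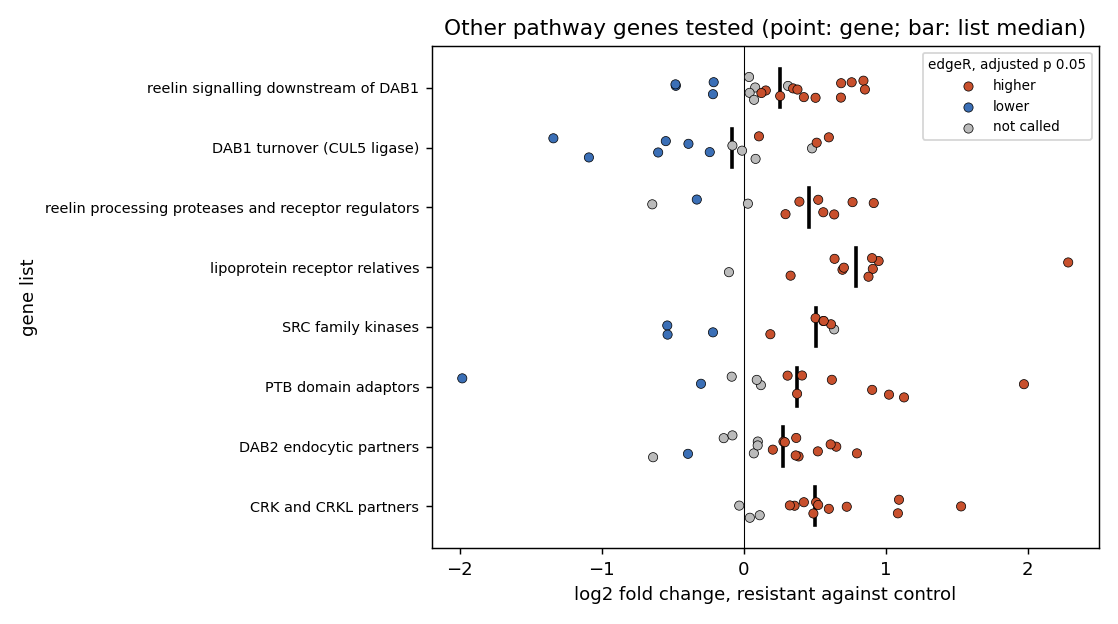
Log2 fold change, resistant against control, of every tested gene of the 8 lists, with 1 point per gene coloured by its call and a bar at each list's median. Medians run from -0.08 for DAB1 turnover to 0.79 for the lipoprotein receptor relatives, where SORL1 is the point farthest to the right.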

How the data were processed

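The deposited values are raw read counts per gene, with 1 table per library and no normalization. The submitters' processing notes name STAR 2.5.2b as aligner, GRCh38 (hg38) as genome and HTSeq as counter. Its version, counting mode, strand option and gene annotation are not stated in these sources, so reads shared by overlapping genes can be missing or misassigned. The 5 rows per table that are not genes (71.08% and 74.4% of records in control, 55.41% and 56.87% in resistant libraries) were left out.

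Identifiers were matched without version to GENCODE 29 (56753 of 60483). Start windows are from RefSeq (GRCh38.p14). Genes were filtered with filterByExpr (minimum count 10), scaled by TMM, and fitted with edgeR 4.0.16 (quasi-likelihood F test, R 4.3.3), with group as the only term and 2 residual degrees of freedom. P-values were adjusted by Benjamini-Hochberg over all 20325 genes tested, with calls below 0.05. The SE is the log2 fold change divided by the square root of F. CPM use TMM-scaled totals. The 2 libraries of each group differed beyond sampling noise (chi-square per degree of freedom 5.67 in control, 2.38 in resistant), so each library counted as 1 replicate. Poisson and binomial intervals cover counting error only, and the floor covers that of the control group only. The offset for length and GC adds a per-library offset from splines (5 degrees of freedom each). Other settings were DESeq2 1.42.0, other scalings and filters, a replicate block and leaving out each library. On simulated counts over 19900 genes, 57.1% of 56 genes changed 1.5-fold, 75.3% of 73 changed 2-fold and 98.6% of 71 changed 4-fold were recovered. There were 9 false calls. The simulation gave all genes the same dispersion and changed few of them, whereas 64.7% were called in the data. These shares therefore do not give the recovery in this comparison.

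The 8 genes and the lists were chosen with earlier results of these data known. From each list, up to 2 called genes per direction were named, those with the largest change at a mean of at least 1 CPM and without overlap between the groups. Neighbours of DAB1 were named if tested. A few genes of the lists and of this region are not reported here and are left out of the counts.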

Additional observations from a re-analysis of the deposited data

How the results depend on the processing

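Under the 11 other settings RELN, LRP8, FYN and CRK kept their direction and their call. CRKL lost its call with the offset for length and GC (log2 0.071). VLDLR, not called in the main analysis, turned to 0.036 when scaled by total count and became called with the 1 CPM filter (-0.197) and with that offset (-0.306). Leaving out 1 library at a time gave -0.26 (called, without control replicate 2) to -0.049 for VLDLR and 6.53 to 8.67 for DAB1. The cause of these shifts was not tested, apart from DAB1, where 1 of the 2 low control counts was removed. Scaling by total count raised the median log2 value of all tested genes by 0.188 and moved the share of called genes that were higher from 51% to 64.4%. It made 7 neighbours of DAB1 higher and 1 lower, in place of 4 and 2. With the offset for length and GC 6 were higher. With no filter 6 were higher too, but that count takes in neighbours that the main filter had removed. The number of neighbours lower was also 1 with no filter, with the 1 CPM filter and with DESeq2, and 1 to 2 when a library was left out. The 1 CPM filter removed LINC01767, LINC01135 and AC105277.1 from the test. With the offset for length and GC 29 list genes were lower, in place of 16. Deviations of libraries with the same replicate number correlated at -0.023 over genes. This shows no shift shared by replicate number, but cannot tell whether the cultures were paired. With the replicate block 6647 genes were higher and 6444 lower, and no call among the 6 genes tested changed, while CUL5 lost its call. At this depth the control level of DAB1 and both levels of DAB2 rest on 7 or fewer counts per library.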
